A study of Mus musculus with 4 samples.

Results

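Collagen genes were described across the cell types of fetal mouse leg muscle. Genes whose symbol reads Col, a number, the letter a and a number were taken from the feature table, without the type VIII genes, which gave 42 of its 32285 genes. The data were droplet-based single-cell RNA sequencing counts of unique molecular identifiers (UMIs), tags that mark each captured transcript once, from leg muscles at E18.5, late in gestation. There were 4 libraries, 2 of wild-type (WT) fetuses and 2 of fetuses without *SYISL* (KO), a long non-coding RNA that overlaps an intron of Synpo2. Per the study's text, WT and KO fetuses were littermates from heterozygous parents. The number of fetuses behind each library and their sex were not stated, and *SYISL* had no entry of its own in the feature table, so the knockout could not be checked in the counts.

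Collagens are trimers of chains that wind into a triple helix. Fibrillar collagens form the fibrils of tendon, bone, cartilage and the connective tissue sheaths of muscle, and type IV collagen forms the network of basement membranes around muscle fibres, vessels and nerves. Fibril-associated collagens sit on the surface of fibrils, type VI collagen forms beaded filaments between cells, multiplexins lie at basement membranes, and transmembrane collagens stay anchored in the cell surface. In muscle, much of the interstitial matrix is made by fibro-adipogenic progenitors (FAPs), the resident mesenchymal cells, while tenocytes build tendon.

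The 42 genes comprised 11 fibrillar genes, 6 of type IV, 6 of type VI, 9 fibril-associated genes, 2 multiplexins, 4 transmembrane genes, Col10a1 of the hexagonal network type, Col7a1 of anchoring fibrils, and Col26a1 and Col28a1, which belong to none of these groups. All 42 matched the GENCODE vM21 annotation of the mouse genome (GRCm38), and together they had 9344899 UMIs in the kept cells. Levels are given in CPM, a gene's UMIs as a share of all UMIs of a cell class in a library, where 10000 CPM is 1%. Libraries were made from transcript 3′ ends, so levels were not divided by length, but genes can still differ in capture.

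After filtering, 36969 of 41741 deposited cells were kept, between 8177 and 10461 in each library, with a median of 9118 to 11427 UMIs per cell. Pairs of libraries shared 21 to 41 cell barcodes. Clusters were named from markers that held no collagen, and collagens were left out of the clustering. The 12 FAP markers summed to 5555 to 6568 CPM in FAP-like cells, and the myogenic markers to 3025 to 3426 CPM in myogenic-like cells. KO replicate 2 stood apart in Xist, at 1200 CPM against at most 0.0533 CPM in the other libraries, the pattern of a library with female cells, so genotype and this difference were not balanced, and Col4a5 and Col4a6 lie on the X chromosome. KO replicate 1 held 179 chondrocyte-like cells, where WT replicates 1 and 2 and KO replicate 2 held 392, 714 and 1024. Doublets were kept in the sums, and Scrublet called 2.11% and 1.72% of WT cells and 2.69% and 2.75% of KO cells as doublets.

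Promoter windows of 250 bases before to 50 bases after the annotated start were taken from RefSeq (GRCm38.p6) for the 33 members that matched. Col4a1 and Col4a2 lie head to head on chromosome 8, and their windows are shown because their levels went together across classes, as described below. The 78 bases that both windows share (chr8:11312777-11312854) are in capitals, and each sequence is written 5′ to 3′ on the strand of its gene. The Col4a1 window was chr8:11312777-11313076 on the minus strand and the Col4a2 window chr8:11312555-11312854 on the plus strand.
Col4a1: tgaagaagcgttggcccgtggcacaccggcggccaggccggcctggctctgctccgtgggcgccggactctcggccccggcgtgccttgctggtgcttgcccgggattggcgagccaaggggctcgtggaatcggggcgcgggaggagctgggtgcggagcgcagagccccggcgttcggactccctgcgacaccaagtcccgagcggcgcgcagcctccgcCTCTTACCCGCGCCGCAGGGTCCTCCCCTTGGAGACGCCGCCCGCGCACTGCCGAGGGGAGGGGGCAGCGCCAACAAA
Col4a2: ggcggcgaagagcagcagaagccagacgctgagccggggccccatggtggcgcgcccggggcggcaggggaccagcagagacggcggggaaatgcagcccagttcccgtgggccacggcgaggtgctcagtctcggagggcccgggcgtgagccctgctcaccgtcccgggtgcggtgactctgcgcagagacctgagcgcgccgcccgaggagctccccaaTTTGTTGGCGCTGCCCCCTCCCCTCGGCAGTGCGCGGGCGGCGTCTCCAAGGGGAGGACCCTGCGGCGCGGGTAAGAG
The windows of a gene high in FAP-like cells and of one high in chondrocyte-like cells are set beside them. For Col3a1 (chr1:45311288-45311587, plus strand) the capitals mark a TATAAA match 117 bases before the start. For Col11a2 (chr17:34038888-34039187, plus strand) they mark the 2 matches to GGGCGG, both on the other strand, 133 and 38 bases before the start.
Col3a1: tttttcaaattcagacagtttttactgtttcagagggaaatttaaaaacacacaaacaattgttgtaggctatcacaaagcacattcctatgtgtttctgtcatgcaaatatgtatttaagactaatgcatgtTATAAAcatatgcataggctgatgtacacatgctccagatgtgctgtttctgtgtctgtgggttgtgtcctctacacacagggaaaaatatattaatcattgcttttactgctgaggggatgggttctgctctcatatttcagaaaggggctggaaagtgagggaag
Col11a2: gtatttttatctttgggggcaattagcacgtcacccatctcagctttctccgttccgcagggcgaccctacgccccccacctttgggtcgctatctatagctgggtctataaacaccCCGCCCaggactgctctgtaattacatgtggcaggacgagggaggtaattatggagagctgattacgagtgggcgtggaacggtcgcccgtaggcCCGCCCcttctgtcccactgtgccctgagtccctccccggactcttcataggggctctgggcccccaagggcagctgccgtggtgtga
Searched on both strands, GGGCGG was in 20 of the 33 windows (60.6%) and in 35.9% of all 27025 windows. TATAAA was in 5 (15.2% against 14.2% of all), CCAAT in 12 (36.4% against 37.9%), CAGCTG in 7 (21.2% against 16.1%), ACAAAG in 5 (15.2% against 18.7%) and ACAATG in 1 (3.03% against 12.8%). The members with TATAAA were Col3a1, Col10a1, Col11a2, Col13a1 and Col17a1. Of these, Col10a1 and Col11a2 were highest in chondrocyte-like cells, Col13a1 in tenocyte-like cells, Col17a1 in FAP-like cells and Col3a1 in a cluster led by Ccl11.

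Levels across classes are means ± SD over the 4 libraries (n = 4, WT and KO together), a description without a test, because the classes were cut from these same cells. Collagen transcripts took their largest share in tenocyte-like cells, with 46728 CPM in all, followed by chondrocyte-like cells with 38866 CPM, a cluster led by Ccl11 with 32377 CPM and FAP-like cells with 31927 CPM. Glial-like cells had 14527 CPM, smooth muscle or pericyte-like cells 6991 CPM, endothelial-like cells 6561 CPM and myogenic-like cells 3644 CPM. Of the classes of blood origin, macrophage-like and mast-like cells had 2072 and 1962 CPM, and the 214 neutrophil-like cells had 7965 and 6768 CPM in WT and 14528 and 7974 CPM in KO (mean 9309 CPM), above the mean of smooth muscle or pericyte-like and endothelial-like cells. FAP-like cells held 64.1% of all collagen UMIs with 46.5% of the cells, and myogenic-like cells 2.98% with 19.0% of the cells. The highest mean level was in chondrocyte-like cells for 11 genes, tenocyte-like for 9, FAP-like for 8, endothelial-like for 4, glial-like for 3, smooth muscle or pericyte-like, the Ccl11 cluster and myogenic-like for 2 each, and mast-like for 1. For 31 of the 42 genes no library of the top class overlapped any library of the next. In all, 28 genes reached 100 CPM in at least 1 class, and 7 were under 10 CPM in every class.

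**Figure D1:**
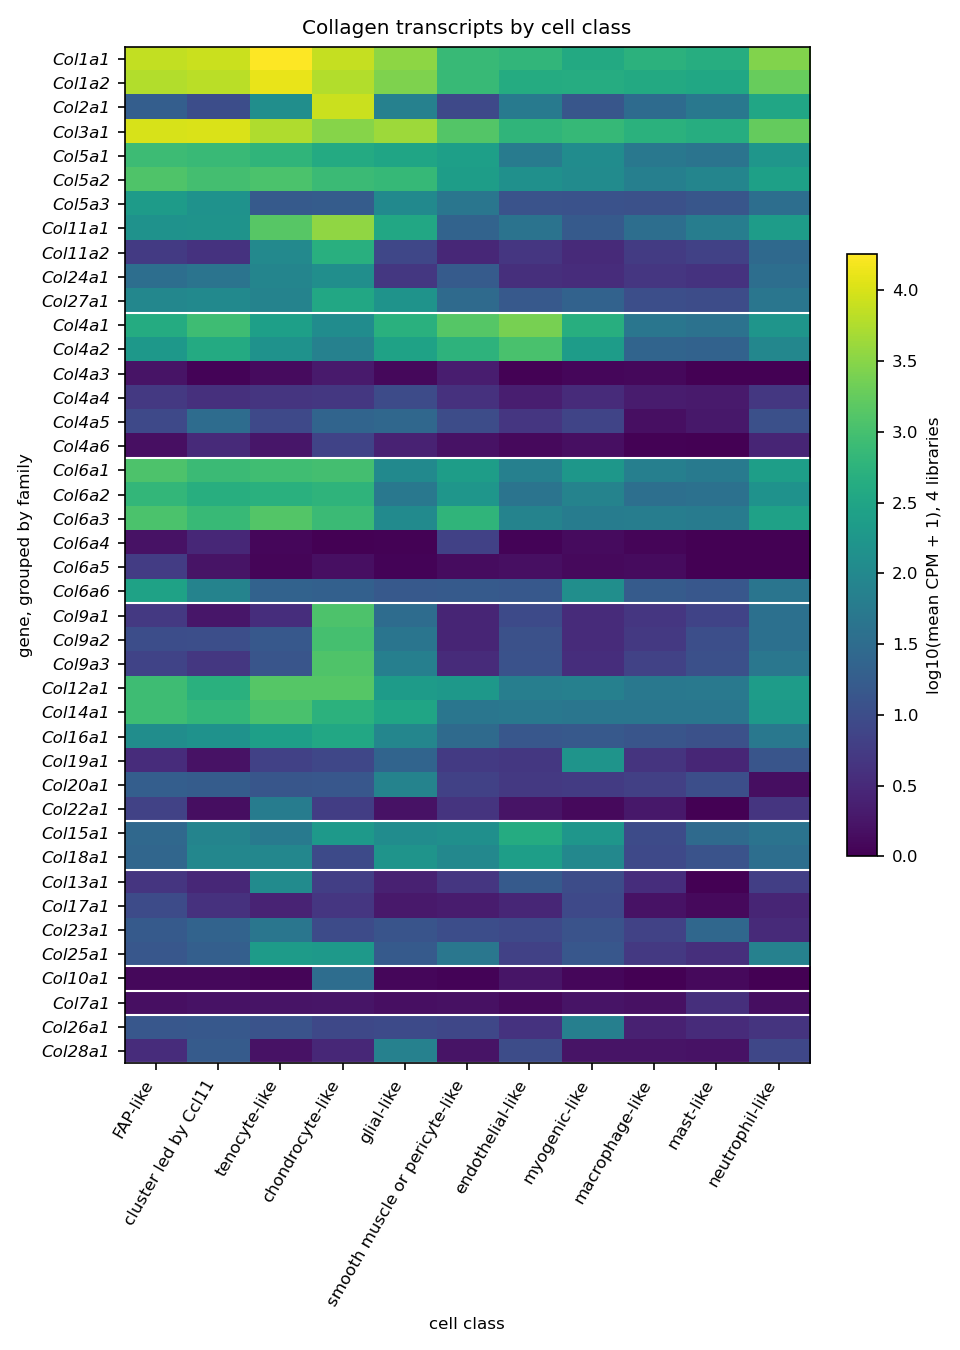
Mean level over 4 libraries of the 42 collagen genes (vertical axis, grouped by family between white lines) in 11 cell classes (horizontal axis), as log10 of CPM + 1 in colour. Col1a1 is highest in tenocyte-like cells (18092 CPM), Col2a1 in chondrocyte-like cells (8100 CPM), Col4a1 in endothelial-like cells (2437 CPM) and Col19a1 in myogenic-like cells (161 CPM).

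Among the fibrillar genes, Col1a1 and Col1a2, the chains of type I collagen of tendon, bone and skin, were highest in tenocyte-like cells. Col1a1 was there at 18254 and 19211 CPM in WT and 17187 and 17716 CPM in KO, above every library of every other class. The Ccl11 cluster, chondrocyte-like and FAP-like cells had 8254 ± 754, 7511 ± 618 and 7483 ± 381 CPM, and neighbours in this order overlapped. Glial-like cells followed with 3464 ± 345 CPM, and smooth muscle or pericyte-like, endothelial-like and myogenic-like cells had 733, 634 and 387 CPM. Col3a1, the chain of type III collagen of loose connective tissue, had another order, with 10450 ± 1195 CPM in the Ccl11 cluster and 10103 ± 1309 CPM in FAP-like cells, which overlapped, and 5560 ± 541 CPM in tenocyte-like cells. In FAP-like cells Col3a1 was above Col1a1 in every library (11012, 8932, 11441 and 9028 CPM against 7807, 7365, 7763 and 6996 CPM in WT replicates 1 and 2 and KO replicates 1 and 2), and in tenocyte-like cells it was below in every library.

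The type V chains, which take part in the start of fibrils, were highest in FAP-like cells, Col5a1 at 839 ± 57.8, Col5a2 at 1226 ± 65.6 and Col5a3 at 216 ± 20.6 CPM. Col5a2 overlapped with tenocyte-like cells (1119 ± 97.1 CPM) and Col5a1 with the Ccl11 cluster (754 ± 47.0 CPM). Col5a3 came next in the Ccl11 cluster (148 CPM) and glial-like cells (103 CPM) without overlap.

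Cartilage collagens were concentrated in chondrocyte-like cells. Col2a1, the fibril-forming chain of cartilage, had 11983 and 7184 CPM in WT and 5285 and 7948 CPM in KO. The next class was neutrophil-like cells with a mean of 333 CPM, and tenocyte-like cells had 125 ± 25.0 CPM. Col9a1, Col9a2 and Col9a3, which coat type II fibrils, had 1156 ± 347, 996 ± 267 and 1232 ± 347 CPM, and their highest mean in any other class was 69.1 CPM, for Col9a3 in glial-like cells. Col11a1 and Col11a2, chains of type XI collagen, were at 3541 ± 617 and 480 ± 136 CPM and came next in tenocyte-like cells with 1444 ± 129 and 98.6 ± 18.8 CPM. Col10a1, a mark of hypertrophic chondrocytes, was at 83.4, 6.50, 19.8 and 21.4 CPM in WT replicates 1 and 2 and KO replicates 1 and 2, so its mean rested largely on WT replicate 1. Col27a1 (360 ± 53.8 CPM), Col24a1 (124 ± 18.1 CPM) and Col16a1 (358 ± 38.7 CPM) were also highest in this class.

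Col2a1 was found at low levels in other classes. In FAP-like cells it was at 14.5, 25.7, 3.73 and 27.0 CPM, in endothelial-like cells at 66.3, 73.9, 2.55 and 71.9 CPM and in glial-like cells at 38.7, 36.4, 3.99 and 217 CPM, in WT replicates 1 and 2 and KO replicates 1 and 2. KO replicate 1, with the fewest chondrocyte-like cells, was the lowest in all 3 classes, and the order of the other 3 libraries was not the same in any pair of these classes. The part of free RNA in these values was not tested.

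**Figure D2:**
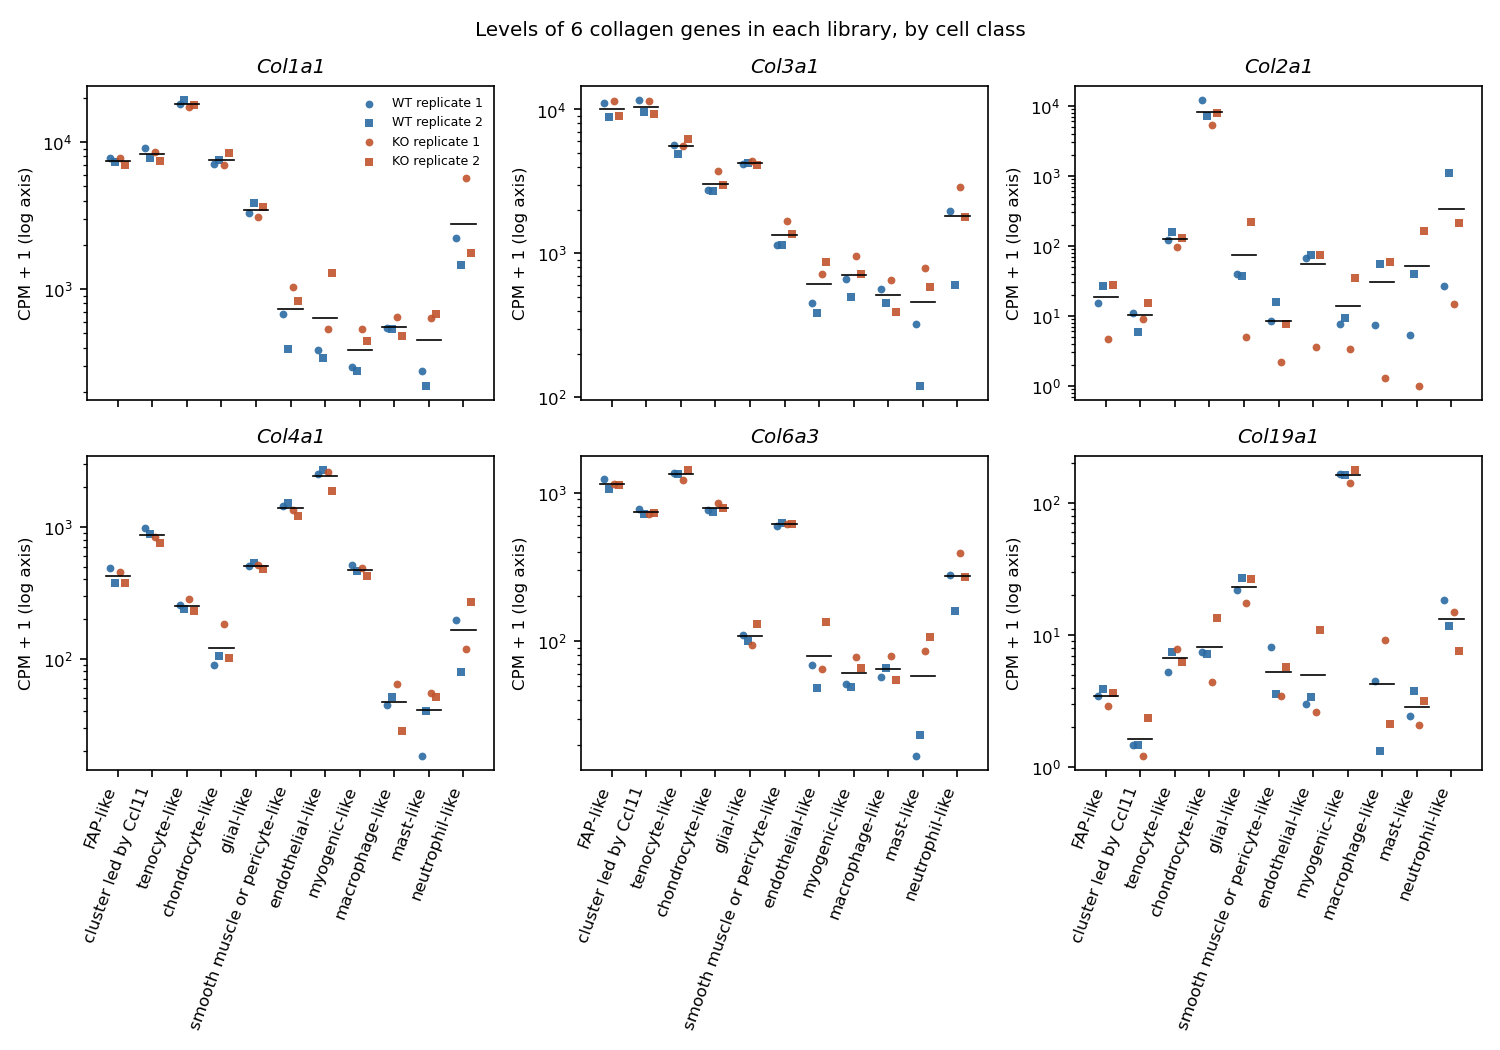
CPM + 1 on a log axis of Col1a1, Col3a1, Col2a1, Col4a1, Col6a3 and Col19a1 in 11 cell classes. Each point is 1 library (blue, WT; orange, KO; circles, replicate 1; squares, replicate 2) and each line is the mean of the 4 libraries, at 2437 CPM for Col4a1 in endothelial-like cells and 161 CPM for Col19a1 in myogenic-like cells.

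Type IV collagen was led by Col4a1 and Col4a2, the chains of nearly every basement membrane. Col4a1 in endothelial-like cells was at 2530 and 2708 CPM in WT and 2639 and 1870 CPM in KO, lowest in KO replicate 2. Smooth muscle or pericyte-like cells had 1381 ± 134 CPM, the Ccl11 cluster 862 ± 97.0 CPM and glial-like cells 507 ± 19.7 CPM, without overlap between neighbours in this order. Myogenic-like cells had 474 ± 38.7 CPM and overlapped with glial-like cells. Col4a2 had the same order, with 1063 ± 138, 556 ± 34.0, 395 ± 22.6 and 278 ± 4.36 CPM.

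The other type IV chains were low. Col4a5 reached 31.4 ± 8.15 CPM in the Ccl11 cluster, 25.8 ± 2.00 CPM in glial-like and 22.7 ± 1.55 CPM in chondrocyte-like cells, which overlapped. Col4a4 was highest in glial-like cells (8.22 ± 0.892 CPM) and Col4a6 in chondrocyte-like cells (6.15 ± 1.51 CPM). Col4a3 had 202 UMIs in all kept cells, and its highest class mean was 1.17 CPM with overlap between classes.

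Of the type VI chains, Col6a1 and Col6a2 were highest in FAP-like cells (1159 ± 82.0 and 666 ± 33.3 CPM) and Col6a3 in tenocyte-like cells (1324 ± 88.2 CPM), where it overlapped with FAP-like cells (1139 ± 72.6 CPM). In smooth muscle or pericyte-like cells Col6a3 was at 595 and 618 CPM in WT and 617 and 610 CPM in KO, while Col6a1 had 235 ± 17.5 CPM there. Col6a6, an alternative chain, had 283 ± 28.4 CPM in FAP-like cells and was next highest in myogenic-like cells with 137 and 131 CPM in WT and 128 and 108 CPM in KO. Col6a4 and Col6a5 were low everywhere, at most 5.78 ± 1.58 CPM in smooth muscle or pericyte-like and 4.79 ± 0.742 CPM in FAP-like cells.

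Among the fibril-associated genes, Col12a1, found in dense connective tissue, was at 1359 ± 95.7 CPM in tenocyte-like and 1343 ± 30.2 CPM in chondrocyte-like cells, which overlapped, and at 850 ± 4.88 CPM in FAP-like cells. Col14a1 had 1091, 1237, 795 and 1164 CPM in tenocyte-like cells (WT replicates 1 and 2, KO replicates 1 and 2) and overlapped with FAP-like cells at 867 ± 49.9 CPM. Col22a1, known from the junction of muscle and tendon, was at 77.6 and 51.3 CPM in WT and 77.3 and 36.8 CPM in KO in tenocyte-like cells and had no mean above 5.79 CPM elsewhere. Col20a1 was at 71.4 and 64.4 CPM in WT and 92.2 and 85.5 CPM in KO in glial-like cells, which did not overlap with FAP-like cells, the next class.

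Col19a1 was highest in myogenic-like cells, at 163 and 162 CPM in WT and 141 and 176 CPM in KO, and next in glial-like cells with 22.3 ± 4.51 CPM. After each cell was thinned to 2000 UMIs, 21.8 ± 2.11% of myogenic-like cells held a Col19a1 UMI (median depth before thinning 10082 UMIs), against 0.197% of macrophage-like cells (10713.5 UMIs), taken as the background. Col26a1 was also highest in myogenic-like cells, at 77.8 and 66.3 CPM in WT and 63.3 and 63.7 CPM in KO against 13.9 ± 1.27 CPM in the Ccl11 cluster, and 12.7% of myogenic-like cells held a UMI after thinning against 0.286% of macrophage-like cells.

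The multiplexins Col15a1 and Col18a1, basement membrane collagens that can release endostatin-type fragments, were highest in endothelial-like cells with 414 ± 17.9 and 247 ± 11.6 CPM. Col15a1 came next in chondrocyte-like (201 ± 17.2 CPM) and myogenic-like cells (172 ± 16.9 CPM), and Col18a1 in glial-like cells (160 ± 5.82 CPM). Of the transmembrane genes, Col13a1 (113 ± 17.2 CPM), Col23a1 (46.8 ± 5.92 CPM) and Col25a1 (216 ± 15.5 CPM) were highest in tenocyte-like cells, and Col25a1 overlapped there with chondrocyte-like cells (199 ± 64.5 CPM). Col17a1, known from epithelial attachment, was at 8.57 ± 1.99 CPM in FAP-like and 7.61 ± 1.35 CPM in myogenic-like cells, which overlapped. Col28a1, described in peripheral nerve, had 70.2 and 77.0 CPM in WT and 79.1 and 71.0 CPM in KO in glial-like cells and 15.6 ± 4.10 CPM in the Ccl11 cluster. Col7a1, the chain of anchoring fibrils, had 237 UMIs in all, and its highest class mean was 2.68 CPM in mast-like cells with overlap between classes.

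Myogenic-like cells were divided by markers into 3697 progenitor-like, 1841 cycling, 1093 myoblast-like and 80 myotube-like cells, with 325 cells in a sub-cluster that matched no stage and was led by Ebf2, Pdgfra, Dcn and Lum, genes of FAPs and other fibroblasts. Col1a1 was also among the leading genes of this sub-cluster. Scrublet, a caller of droplets that hold several cells, marked 280 of these 325 cells as doublets, and 287 of all 7036 myogenic-like cells. Basement membrane collagens were lower in myoblast-like than in progenitor-like cells. Col4a1 was at 708, 621, 673 and 581 CPM in progenitor-like cells and 93.3, 101, 76.5 and 92.8 CPM in myoblast-like cells, with cycling cells between them at 450 ± 18.6 CPM. No library overlapped between these stages.

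The same order held for Col15a1 (230, 182 and 34.9 CPM in progenitor-like, cycling and myoblast-like cells), Col18a1 (132, 108 and 4.83 CPM), Col6a1 (184, 134 and 16.2 CPM) and Col6a6 (171, 111 and 1.88 CPM), none of which overlapped between cycling and myoblast-like cells. Col19a1 was at 210 ± 17.8, 163 ± 25.6 and 56.9 ± 6.53 CPM. Col26a1 was at 73.6 ± 8.40, 62.8 ± 5.68 and 72.3 ± 9.56 CPM, and its stages overlapped. Col25a1 was at 213 and 177 CPM in WT and 612 and 347 CPM in KO in myotube-like cells and at most 13.4 CPM in any library of the other named stages, although the myotube-like values rested on 11 to 31 cells per library and were not tested.

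The 3 clusters of FAP-like cells differed in their collagens. The cluster led by Grm8 and Hpse2 (9097 cells) had more Col4a1 (569 ± 59.7 against 183 ± 11.1 CPM), Col6a1 (1407 against 854 CPM) and Col6a3 (1368 against 800 CPM) than the cluster led by Ly6a, Wnt2 and Pi16 (5345 cells). The Ly6a-led cluster had more Col3a1 (12883 ± 2026 against 9237 ± 1072 CPM) and Col1a1 (9288 ± 766 against 6566 ± 540 CPM). The third, led by Mxd3 and Plk1 (2730 cells), had 8149 CPM of Col3a1.

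At a clustering resolution of 1, tenocyte-like cells fell into a sub-cluster led by Kera, Amtn and Chst5 (935 cells) and one led by Scx, Ptx4 and Zfp185 (1246 cells). Col1a1 was at 28772 ± 1827 CPM in the Kera-led and 10804 ± 571 CPM in the Scx-led cells, Col14a1 at 2445 and 104 CPM, and Col11a1 at 2313 and 852 CPM. The Scx-led cells had more Col25a1 (336 against 50.7 CPM), Col13a1 (158 against 57.0 CPM) and Col22a1 (103 against 3.13 CPM). Genes that were highest in tenocyte-like cells as a class were therefore high in different cells of it.

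At that resolution the cells also formed a cluster of 833 cells led by Spp1, Runx2 and Tnn, genes known from bone-forming cells, within what was the chondrocyte-like class. These had 17937 ± 1970 CPM of Col1a1 and 636 ± 15.1 CPM of Col2a1, whereas 1256 cells led by Msmp, Matn1 and Cytl1 had 2814 ± 540 and 11344 ± 3716 CPM. Col24a1 was at 213 and 93.2 CPM in the Spp1-led and Msmp-led cells, and Col12a1 at 1723 and 1220 CPM. Divided by Col2a1 itself, after thinning to 2000 UMIs, 675 chondrocyte-like cells without a Col2a1 UMI had 14555 ± 2375 CPM of Col1a1, 586 cells with 1 to 9 had 9022 ± 2623 CPM, and 1037 cells with 10 or more had 2800 ± 476 CPM. Col9a1 went the other way, with 86.6, 477 and 2071 CPM. A class level is thus a mean over unlike cells, and a shift in their proportions and a shift per cell cannot be told apart in it.

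**Figure D3:**
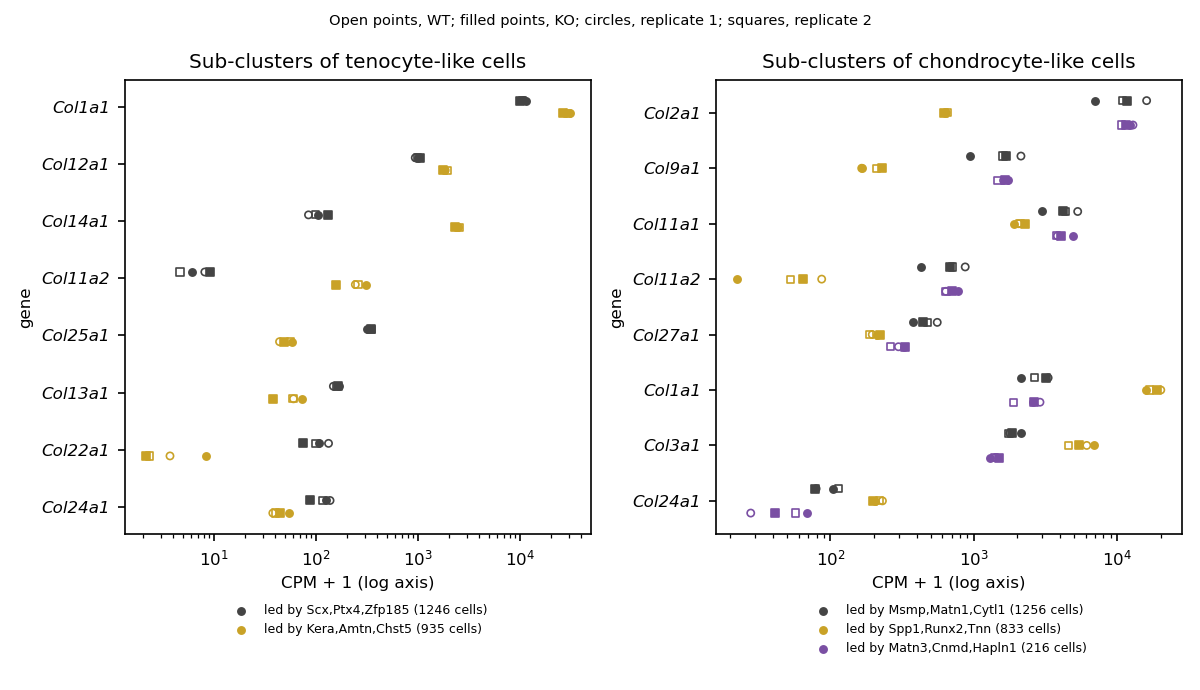
CPM + 1 on a log axis for 8 collagens each in the resolution-1 sub-clusters of tenocyte-like and chondrocyte-like cells, with 1 point per library (open, WT; filled, KO). Col14a1 lies at 2445 and 104 CPM as means in the Kera-led and Scx-led tenocyte-like cells, and Col24a1 at 213 and 93.2 CPM in the Spp1-led and Msmp-led chondrocyte-like cells.

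The type I trimer holds more alpha 1 than alpha 2 chains, and the UMIs of Col1a1 per UMI of Col1a2 were compared between classes as a description. The ratio was 1.27 ± 0.0408 in FAP-like, 1.39 ± 0.0503 in tenocyte-like, 1.30 ± 0.0397 in chondrocyte-like and 1.26 ± 0.0752 in glial-like cells. In smooth muscle or pericyte-like cells it was 0.953 ± 0.177. In progenitor-like cells it was 0.373 ± 0.0596, in cycling cells 0.448 ± 0.0904 and in myoblast-like cells 0.799 ± 0.0941. Every library of these 3 myogenic stages was below 1, and every library of the FAP-like, tenocyte-like, chondrocyte-like and glial-like classes above 1. The 325 cells led by FAP genes had 1.29 ± 0.0330, and macrophage-like cells 1.45 ± 0.0729.

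Col5a1 per Col5a2 was below 1 in FAP-like (0.684 ± 0.0185), tenocyte-like (0.546 ± 0.0281), chondrocyte-like (0.497 ± 0.0203) and glial-like cells (0.453 ± 0.0311), and above 1 in every library of progenitor-like cells (1.48 ± 0.179). Col4a1 per Col4a2 was above 1 in every class counted, from 1.58 ± 0.289 in chondrocyte-like to 2.48 ± 0.107 in smooth muscle or pericyte-like cells. Col6a1 per Col6a2 went from 1.40 ± 0.0904 in smooth muscle or pericyte-like to 2.44 ± 0.116 in cycling myogenic cells. Because capture differs between genes, such a ratio can be compared between classes but is no ratio of chains.

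**Figure D4:**
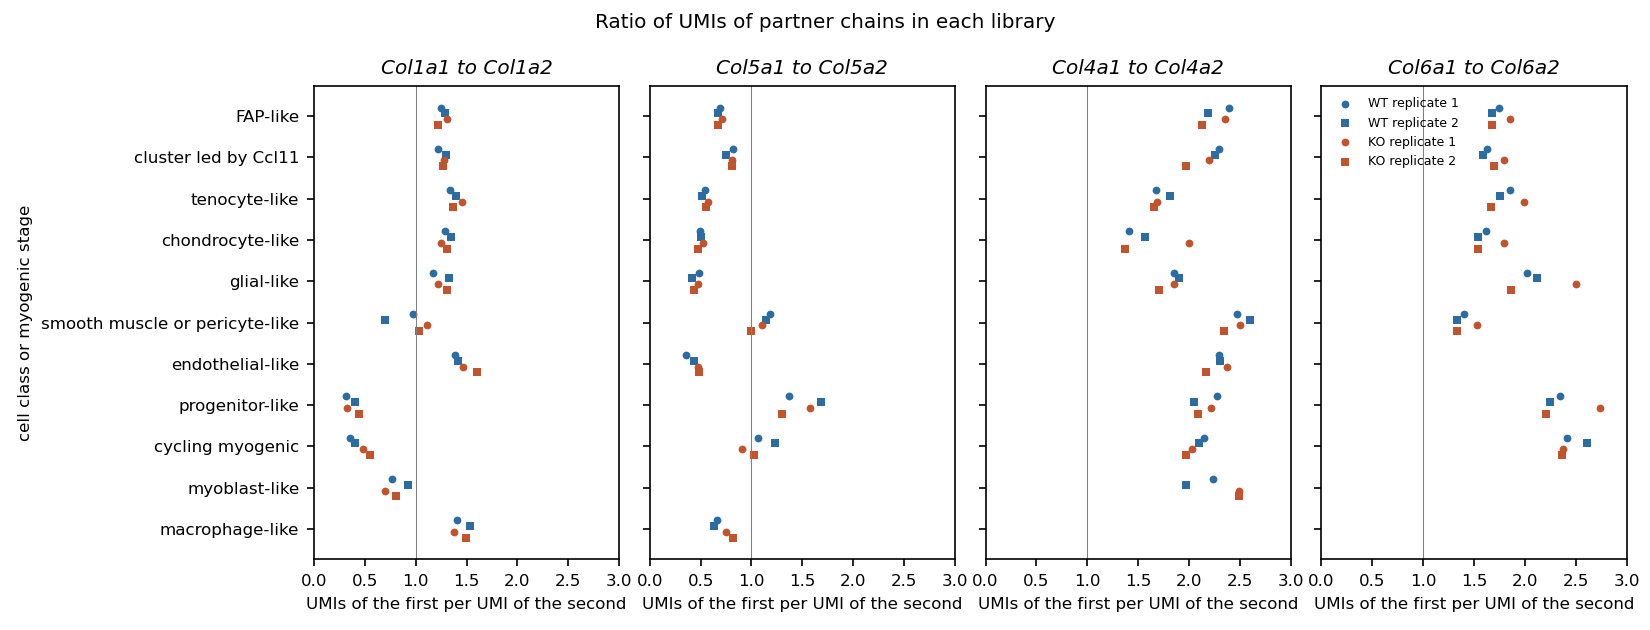
UMIs of a chain per UMI of its partner (horizontal axis, grey line at 1) in each cell class or myogenic stage with at least 100 UMIs of each chain. Each point is 1 library (blue, WT; orange, KO; circles, replicate 1; squares, replicate 2), and progenitor-like cells lie from 0.317 to 0.439 for Col1a1 to Col1a2 and from 1.30 to 1.69 for Col5a1 to Col5a2.

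Of 8 neighbouring gene pairs among the members, Col4a1 and Col4a2 (overlap of 22 bases), Col6a1 and Col6a2 (85.2 kb apart) and Col3a1 and Col5a2 (24.6 kb apart) had the highest correlation of log2(CPM + 1) over the 11 classes, with r = 0.996, 0.993 and 0.968. Col4a5 and Col4a6 had r = 0.821, Col6a5 and Col6a6 0.697, Col4a3 and Col4a4 0.315, Col6a4 and Col6a5 0.211, and Col9a1 and Col19a1 (9.21 kb apart) 0.154. The 11 points share libraries and depth, so these values are a description.

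Macrophage-like, mast-like and neutrophil-like cells are of blood origin and not known as a main source of type I collagen, and their values are given as the background. After thinning to 2000 UMIs, 22.2 ± 2.80% of macrophage-like cells held a Col1a1 UMI (median depth 10713.5 UMIs), as did 18.1 ± 3.89% of mast-like (11239 UMIs) and 32.9 ± 6.24% of neutrophil-like cells (3673 UMIs), against 99.6% of FAP-like (10338 UMIs), 85.8 ± 2.40% of glial-like (10775 UMIs), 36.6 ± 1.77% of smooth muscle or pericyte-like (9808.5 UMIs) and 19.1 ± 2.52% of myogenic-like cells (10082 UMIs). The share in myogenic-like cells was not above that in macrophage-like cells, and the source of these UMIs was not tested. That in smooth muscle or pericyte-like cells overlapped with neutrophil-like cells. In macrophage-like cells 4 to 8 cells of a library held 50% of the Col1a1 UMIs, and 72.3% to 80.6% of these UMIs lay in called doublets. In myogenic-like cells 63.6% to 70.6% lay in called doublets, and in FAP-like cells at most 0.934%. In glial-like cells Col6a3 had 0.0256 to 0.0357 UMIs per Col1a1 UMI, against 0.121 to 0.134 over all cells.

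KO was compared with WT in each class on summed counts of 2 libraries against 2 with edgeR's quasi-likelihood test and Benjamini-Hochberg adjustment over all genes past a filter on low counts. Differences are log2, KO minus WT, ± SE. Nothing in the labels says that libraries of a genotype came from separate litters, so p-values measure the spread between these libraries, and an exact permutation test of 2 against 2 cannot go below p = 0.333. In FAP-like cells 0 of 41 tested members passed an adjusted p of 0.05 in edgeR, as did 0% of all 18141 genes, and 0 of 42 in DESeq2 (0.0313%). At an unadjusted p under 0.05, 1 member passed, against 2.5% of all genes. The median difference was -0.054 over the members and -0.0022 over all genes. Col3a1, at 11012 and 8932 CPM in WT and 11441 and 9028 CPM in KO, differed by 0.069 ± 0.15, and Col1a1, at 7807 and 7365 CPM in WT and 7763 and 6996 CPM in KO, by -0.0078 ± 0.083. Libraries of both genes overlapped. Col1a2 (6232 and 5695 against 5928 and 5739 CPM), Col5a2 (1320 and 1175 against 1224 and 1187 CPM), Col6a1 (1248 and 1101 against 1209 and 1079 CPM) and Col6a3 (1235 and 1060 against 1138 and 1123 CPM) overlapped as well. The member under the unadjusted limit, named after its values were seen, was Col24a1 at 37.9 and 36.7 CPM in WT and 30.4 and 30.4 CPM in KO (-0.27 ± 0.074, adjusted p = 1.000 in edgeR). Without KO replicate 2, 2 members passed the adjusted limit, against 0.0862% of all genes.

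In myogenic-like cells 12 of 36 tested members were under an unadjusted p of 0.05, all higher in KO, against 4.69% of all genes. None passed the adjusted p in edgeR, against 0.00664% of all genes, and DESeq2 called 4, against 0.0853%. The 12, read off after the test, were Col1a1, Col1a2, Col3a1, Col5a1, Col5a2, Col5a3, Col24a1, Col27a1, Col6a3, Col12a1, Col14a1 and Col16a1, of which 8 are fibrillar. Col1a1 was at 294 and 278 CPM in WT and 533 and 444 CPM in KO (0.80 ± 0.088, adjusted p = 0.0835 in edgeR). Col1a2 was at 372 and 337 against 529 and 459 CPM (0.51 ± 0.084, adjusted p = 0.289 in edgeR), and Col3a1 at 667 and 500 against 955 and 714 CPM (0.55 ± 0.16, adjusted p = 0.963 in edgeR). Both KO libraries were above both WT libraries for these 3 genes.

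Basement membrane genes of the same cells had values near each other in both genotypes. Col4a1 was at 517 and 466 CPM in WT and 489 and 426 CPM in KO (-0.072 ± 0.085), Col4a2 at 232 and 224 against 226 and 210 CPM (-0.035 ± 0.068) and Col6a1, of the interstitial filaments, at 185 and 153 against 208 and 158 CPM (0.14 ± 0.13), with overlap in all 3. Of the 4 tested type IV genes none was under an unadjusted p of 0.05.

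Like Col1a1, the sum of the FAP markers was higher in both KO libraries of myogenic-like cells than in both WT libraries. The 12 FAP markers summed to 330 and 251 CPM in WT and 484 and 377 CPM in KO, 9 of the 12 were higher in both KO libraries, and 0 were at 0. The share of all genes with this order is not given, so the count is a description. The 325 cells led by FAP genes, 86.2% of them called doublets, had 4171 CPM of Col1a1 and made up 3.34% and 2.74% of myogenic-like cells in WT and 5.54% and 5.87% in KO. Without them, a setting chosen after the data were seen, Col1a1 was at 79.5 and 90.3 CPM in WT and 85.3 and 114 CPM in KO (0.28 ± 0.14, adjusted p = 0.968 in edgeR), with overlap, and Col14a1 at 14.5 and 15.5 against 14.4 and 15.3 CPM. Then 0 members passed the adjusted limit and 1 was under the unadjusted limit, against 0% and 3.6% of all genes. Col1a1 was itself among the leading genes of these cells, so their removal lowers its level and is no independent test. Without called doublets Col1a1 was at 98.0 and 106 CPM in WT and 172 and 162 CPM in KO (0.75 ± 0.070, adjusted p = 0.0449 in edgeR). In that setting 1 member passed the adjusted limit, against 0.00679% of all genes, and 9 were under the unadjusted limit, against 3.85%. The FAP markers then summed to 190 and 160 CPM in WT and 245 and 199 CPM in KO. Without KO replicate 1 or KO replicate 2, 3 and 1 members passed the adjusted limit, against 0.365% and 0.039% of all genes. Without KO replicate 2 the members under the unadjusted limit lay in both directions, and the median over the tested members was -0.0098, against 0.155 with all libraries.

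**Figure D5:**
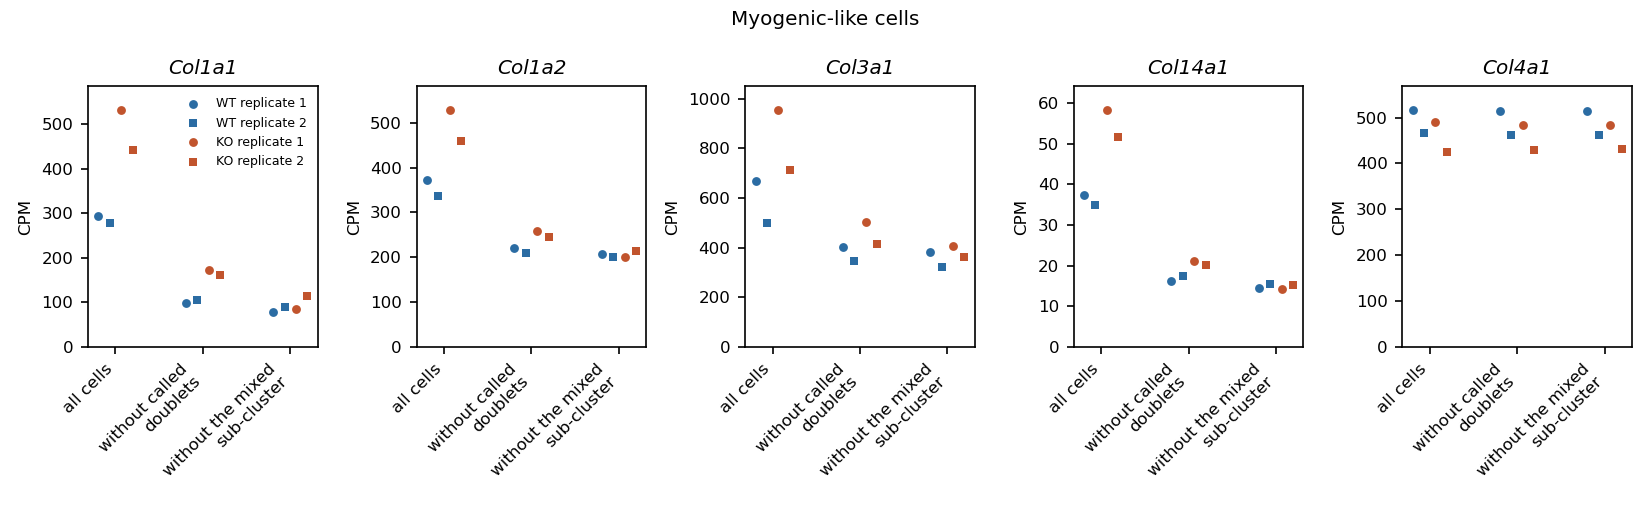
CPM of Col1a1, Col1a2, Col3a1, Col14a1 and Col4a1 in myogenic-like cells over all cells, without called doublets, and without the 325-cell sub-cluster led by FAP genes. Each point is 1 library (blue, WT; orange, KO; circles, replicate 1; squares, replicate 2), and Col1a1 lies at 79.5 and 90.3 CPM in WT and 85.3 and 114 CPM in KO without that sub-cluster.

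Whether the KO difference was unlike in the myogenic and the FAP class was tested as the interaction of genotype and class, with the library as a block because both classes come from the same libraries. In edgeR, 4 of 42 members passed the adjusted p of 0.05, against 0.206% of all genes, and 13 were under the unadjusted limit, against 4.67%. All 4 had the more positive difference in myogenic-like cells, Col1a1 by 0.79 ± 0.037 (adjusted p = 6.92e-05), Col1a2 by 0.49 ± 0.044 (adjusted p = 0.00323), Col3a1 by 0.47 ± 0.042 (adjusted p = 0.00323) and Col14a1 by 0.64 ± 0.068 (adjusted p = 0.00834). Without the 325 cells led by FAP genes 0 members passed in edgeR and 2 were under the unadjusted limit, against 0% and 2.85% of all genes. Because Col1a1 was among the leading genes of these cells, this is no independent test. Without called doublets 1 passed, Col1a1, against 0.0167% of all genes. With the cells clustered again, settings chosen after the data were seen, 0 passed with a looser cell filter, 0 with collagen genes kept in the clustering, 4 with library-centred clustering and 8 at resolution 1, against 0%, 0.00556%, 0.106% and 0.379% of all genes.

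The named stages leave those 325 cells out. In progenitor-like cells 0 of 34 members passed in edgeR (0% of all genes) and 0 of 42 in DESeq2 (0.00466%). At the unadjusted limit in edgeR 1 passed, Col27a1, against 3.5%. Col1a1 was there at 86.5 and 104 CPM in WT and 83.3 and 111 CPM in KO and Col4a1 at 708 and 621 CPM in WT and 673 and 581 CPM in KO, both with overlap. In myoblast-like cells 0 of 24 members passed in edgeR (0% of all genes) and 0 of 39 in DESeq2 (0.00527%). At that limit 5 passed, 3 higher and 2 lower in KO, against 4.39%. Without KO replicate 2, 1 member passed in progenitor-like cells, against 0.0526% of all genes.

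In tenocyte-like cells 0 of 35 members passed in edgeR (0% of all genes) and 0 of 42 in DESeq2 (0%). At the unadjusted limit 2 passed, against 2.49%. Col1a1 differed by -0.067 ± 0.079, Col1a2, at 13636 and 13772 CPM in WT and 11793 and 12927 CPM in KO, by -0.11 ± 0.084, and Col11a1, at 1433 and 1593 CPM in WT and 1280 and 1469 CPM in KO, by -0.10 ± 0.10. Both KO libraries were below both WT libraries for Col1a1 and Col1a2, and those of Col11a1 overlapped. Without KO replicate 1 or KO replicate 2, 3 and 5 members passed, against 1.09% and 1.52% of all genes.

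In chondrocyte-like cells 0 of 38 members passed in edgeR (0% of all genes) and 0 of 41 in DESeq2 (0%). At the unadjusted limit 4 passed, against 2.43%. Col2a1 differed by -0.54 ± 0.26, and its libraries overlapped because KO replicate 2 (7948 CPM) lay above WT replicate 2 (7184 CPM). Col11a1, at 4327 and 3478 CPM in WT and 2820 and 3540 CPM in KO, differed by -0.30 ± 0.17, and Col1a1, at 7093 and 7559 CPM in WT and 7026 and 8366 CPM in KO, by 0.070 ± 0.14. All 7 tested cartilage genes had negative differences, with a median of -0.47 against -0.0045 over all genes. After thinning to 2000 UMIs, cells without a Col2a1 UMI numbered 97 and 201 in WT and 83 and 294 in KO. Cells with 10 or more numbered 224 and 288 in WT and 50 and 475 in KO. This grouping uses Col2a1 itself, and the part of such proportions in the differences was not tested. KO replicate 1, the library with 179 chondrocyte-like cells, was the lowest of the 4 for Col2a1, Col9a1, Col11a1 and Col11a2. Without WT replicate 1, WT replicate 2 or KO replicate 2, 1, 4 and 1 members passed, against 0.247%, 0.366% and 0.319% of all genes.

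In smooth muscle or pericyte-like cells 10 of 32 members were under the unadjusted limit, 7 higher and 3 lower in KO, against 5.32% of all genes. None passed the adjusted limit in edgeR, against 0.0714% of all genes, and DESeq2 called 1, against 0.0561%. Col4a1 was at 1437 and 1532 CPM in WT and 1339 and 1218 CPM in KO (-0.20 ± 0.074, adjusted p = 0.846 in edgeR), Col4a2 at 582 and 589 against 535 and 520 CPM (-0.13 ± 0.071) and Col15a1 at 136 and 121 against 132 and 125 CPM (0.018 ± 0.092). KO lay below WT without overlap for both type IV genes. Of genes picked after their values were seen, Col3a1 was at 1149 and 1150 against 1681 and 1365 CPM (0.42 ± 0.089, adjusted p = 0.151 in edgeR) and Col1a1 at 676 and 390 against 1032 and 833 CPM (0.82 ± 0.18, adjusted p = 0.176 in edgeR). The FAP markers summed to 514 and 401 CPM in WT and 854 and 630 CPM in KO in this class. Of the 12 markers, 11 were higher in both KO libraries (a description, without the share of all genes) and 0 were at 0. Their part in the result was not tested beyond the removal of doublets. Without called doublets Col1a1 was at 402 and 378 against 566 and 488 CPM (0.46 ± 0.084, adjusted p = 0.101 in edgeR) and the FAP markers summed to 435 and 393 CPM in WT and 588 and 463 CPM in KO. Without WT replicate 1, KO replicate 1 or KO replicate 2, 4, 4 and 6 members passed, against 0.438%, 0.607% and 0.719% of all genes.

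In endothelial-like cells 13 of 32 members were under the unadjusted limit, all higher in KO, against 4.49% of all genes. None passed the adjusted limit in edgeR, against 0.00833% of all genes, and DESeq2 called 1, against 0.0484%. Col4a1 differed by -0.20 ± 0.14, Col4a2, at 1104 and 1175 CPM in WT and 1110 and 862 CPM in KO, by -0.20 ± 0.12, and Col15a1, at 424 and 391 CPM in WT and 431 and 409 CPM in KO, by 0.057 ± 0.10, and none of the 3 was under the limit. Of genes picked after their values were seen, Col3a1 was at 455 and 385 against 721 and 869 CPM (0.93 ± 0.13, adjusted p = 0.0917 in edgeR) and Col1a1 at 387 and 338 against 531 and 1280 CPM (1.33 ± 0.32, adjusted p = 0.612 in edgeR). KO replicate 2 was the highest for both.

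At resolution 1, 141 cells of KO replicate 2 and 1, 2 and 2 cells of the other libraries left this class for a cluster led by Adipoq, Car3 and Fcor, with a median of 2904.5 UMIs and 5277 CPM of Col1a1 in KO replicate 2. In the other 1326 cells Col1a1 was at 381 and 334 CPM in WT and 524 and 760 CPM in KO, so KO replicate 2 stayed the highest for this gene. Col3a1 in the class at that resolution was at 450.3 and 379.5 CPM in WT and 707.9 and 510.3 CPM in KO, highest in KO replicate 1. The test at that resolution gave 0.85 ± 0.15 for Col1a1 (adjusted p = 0.212 in edgeR) and 0.56 ± 0.14 for Col3a1 (adjusted p = 0.691 in edgeR). Over the whole class the FAP markers summed to 772 and 684 CPM in WT and 794 and 965 CPM in KO. Of the 12 markers, 8 were higher in both KO libraries (a description, without the share of all genes) and 0 were at 0. The erythroid markers summed to 309 and 275 CPM in WT and 798 and 4326 CPM in KO. Without called doublets Col1a1 was at 82.1 and 112 against 183 and 950 CPM (2.56 ± 0.62, adjusted p = 0.480 in edgeR) and Col3a1 at 120 and 126 against 304 and 694 CPM (2.03 ± 0.32, adjusted p = 0.420 in edgeR). The FAP markers then summed to 572 and 554 CPM in WT and 676 and 919 CPM in KO and the erythroid markers to 336 and 296 CPM in WT and 578 and 2325 CPM in KO, and their part in the result was not tested. Without KO replicate 1 or KO replicate 2, 16 and 8 members passed the adjusted limit, against 3.97% and 0.631% of all genes. Without KO replicate 2 the members under the unadjusted limit lay in both directions, and the median over the tested members was 0.123, against 0.442 with all libraries. At resolution 1 the members under the unadjusted limit were 9 higher and 3 lower in KO, against 3.61% of all genes.

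In glial-like cells 0 of 33 members passed in edgeR (0% of all genes) and 0 of 42 in DESeq2 (0.00459%). At the unadjusted limit 1 passed, against 3.86%. Col4a1 was at 505 and 531 CPM in WT and 510 and 483 CPM in KO (-0.051 ± 0.086), Col11a1 at 293 and 404 against 287 and 429 CPM (0.049 ± 0.20) and Col4a2 at 273 and 279 against 275 and 283 CPM (0.026 ± 0.084). The single gene, picked after its values were seen, was Col20a1 (0.40 ± 0.10, adjusted p = 0.998 in edgeR), higher in both KO than in both WT libraries. Col20a1 was also under the unadjusted limit, and higher in KO, in macrophage-like cells. Without KO replicate 1 or KO replicate 2, 2 and 1 members passed, against 0.187% and 0.0224% of all genes.

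In macrophage-like cells 0 of 29 members passed in edgeR (0% of all genes) and 0 of 41 in DESeq2 (0.0149%). At the unadjusted limit 2 passed, against 3.98%. These were Col20a1 and Col12a1, both higher in KO and named after their values were seen. In mast-like cells, which numbered 59 and 60 in WT and 85 and 83 in KO, 11 of 20 members were under the unadjusted limit, all higher in KO, against 6.89% of all genes, and 2 passed the adjusted limit, against 0.0981%. Col1a1 rose from 277 and 219 CPM in WT to 634 and 678 CPM in KO (1.40 ± 0.15, adjusted p = 0.0334 in edgeR) and Col6a3 from 15.9 and 22.2 CPM in WT to 84.3 and 106 CPM in KO (2.30 ± 0.27, adjusted p = 0.0404 in edgeR). Few cells carried these counts, since 50% of the Col1a1 UMIs lay in 2 and 1 cells in WT and in 5 and 3 cells in KO. The FAP markers summed to 216 and 275 CPM in WT and 706 and 554 CPM in KO. Of the 12 markers, 9 were higher in both KO libraries (a description, without the share of all genes) and 0 were at 0. Without called doublets Col1a1 was at 208 and 222 against 488 and 231 CPM (0.76 ± 0.30, adjusted p = 0.756 in edgeR), and 0 members passed, against 0% of all genes. The FAP markers then summed to 220 and 277 CPM in WT and 587 and 221 CPM in KO. Without KO replicate 1 or KO replicate 2, 0 members passed, and without WT replicate 1 or WT replicate 2, 12 and 13 did, against 0.0401%, 0%, 2.69% and 2.9% of all genes. Without KO replicate 2 the members under the unadjusted limit lay in both directions, and the median over the tested members was 1.23, against 1.54 with all libraries. Neutrophil-like cells, with 25 to 104 per library, were not tested.

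The 31 genes of a list that make collagen ready (hydroxylases and glycosyltransferases, chaperones, propeptide proteases and cross-linking oxidases) were also followed. Serpinh1, the collagen chaperone, was at 2342 CPM in tenocyte-like, 1791 CPM in FAP-like, 331 CPM in myogenic-like and 123 CPM in macrophage-like cells. Sparc, a secreted protein that binds collagen, had 5452, 3558, 620 and 242 CPM in the same classes, and Lox, which starts the cross-links, 332 CPM in tenocyte-like and 170 CPM in FAP-like cells. No gene of the list passed the adjusted limit in any class, stage or the interaction in the main fit in edgeR. With no filter on low counts 6 passed in the interaction, 2 in smooth muscle or pericyte-like, 1 in chondrocyte-like and 1 in glial-like cells. All genes gave 0.932%, 0.622%, 0.249% and 0.312% there. Under the unadjusted limit were 7 of 30 in myogenic-like cells, all higher in KO (Lox, P4ha2, P4ha3, Serpinh1, Adamts2, Sparc and P3h1), 6 of 28 in endothelial-like cells, all higher, 10 of 31 in the interaction and 0 of 31 in FAP-like cells, against 4.69%, 4.49%, 4.67% and 2.5% of all genes. Also higher were 4 of 29 in smooth muscle or pericyte-like, 4 of 15 in mast-like and 2 of 29 in glial-like cells, against 5.32%, 6.89% and 3.86%. Lower were 2 of 30 in tenocyte-like (Pcolce2 and Lox), 1 of 31 in chondrocyte-like and 1 of 19 in myoblast-like cells, against 2.49%, 2.43% and 4.39%. In myogenic-like cells the sum of the FAP markers and the share of the sub-cluster led by FAP genes were also higher in both KO libraries. Without that sub-cluster 0 of 29 were under the limit in this class and 1 of 31, with a more negative difference in myogenic-like cells, in the interaction. All genes gave 3.6% and 2.85% there. Without called doublets 0 of 29 were under the limit in myogenic-like and 4 of 26 in endothelial-like cells, against 3.85% and 4.76% of all genes. In the interaction without called doublets, 4 of 31 had a more positive and 1 a more negative difference under the limit, against 3.21% of all genes.

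Of 11 collagen receptor genes, Itga1 was at 724 CPM in smooth muscle or pericyte-like cells, Itga2 at 141 CPM in endothelial-like cells, Adgrg6, a receptor needed for myelination, at 327 CPM in glial-like cells, Ddr2 at 181 CPM in FAP-like cells and Lair1 at 38.2 CPM in macrophage-like cells. No receptor gene passed the adjusted limit in any comparison of the main fit in edgeR. Under the unadjusted limit were 0 of 9 in myogenic-like and 0 of 9 in FAP-like cells, against 4.69% and 2.5% of all genes. Higher in KO under it were Itga1 and Ddr2 in glial-like cells (2 of 7) and Ddr2 in endothelial-like (1 of 7) and mast-like cells (1 of 3). Adgrg6 was higher in myoblast-like cells (1 of 4). Lower were Itga1 in chondrocyte-like (1 of 9) and Itga2 in progenitor-like cells (1 of 9). The shares of all genes were 3.86%, 4.49%, 6.89%, 4.39%, 2.43% and 3.5% in this order.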

How the data were processed

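Leg muscle cells of 4 libraries (2 WT, 2 KO) were prepared with 10x 3′ chemistry. The authors deposited a matrix of UMI counts for each library, made with Cell Ranger 7.2.0 on mm10 per the submitters' processing notes. That version counts intronic reads by default, and whether this was kept was not stated. The deposited libraries held 109653824 to 126257094 UMIs.

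Kept cells had 1000 to 6000 genes, 1000 to 25000 UMIs and less than 8% of UMIs from mitochondrial genes. The study's Harmony correction was not used. Counts were scaled to 10000 per cell, and 3000 variable genes without collagens, 30 principal components, 20 neighbours and Leiden resolution 0.3 (scanpy 1.11.5, leidenalg 0.10.2) gave the clusters. The naming rule was written with the data in view: a class needed at least 3 markers and 50% of its list at 2-fold or more in 10% of the cells, and clusters left over were FAP-like where 50% of the FAP markers reached 25% of their highest level and fewer than 2 markers of any other class passed. A name was dropped where another class had more markers among the 10 leading genes. Sums of classes with at least 50 cells per library (15 for stages) were tested in edgeR 4.0.16 (filterByExpr, TMM, quasi-likelihood) and, as an alternative, in DESeq2 1.42.0. The scripts were tested on simulated data. The division of the glial-like cells into sub-clusters is not reported here.

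The collagen genes, the lists of biosynthesis and receptor genes and the markers were chosen with earlier results of these data known. Genes named for KO against WT were the 6 highest collagens of FAP-like and of myogenic-like cells, in 5 other classes the 3 highest among those above their FAP-like level, and any that passed the adjusted limit. Others are said to be picked after their values were seen. Alternatives were DESeq2, RLE factors, no low-count filter, a replicate block, each library left out, doublets removed (Scrublet), a looser cell filter, resolution 1, collagens kept in the clustering and expression centred by library.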

Additional observations from a re-analysis of the deposited data

Results flagged for a closer look

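The KO difference of 4 genes was unlike in myogenic-like and in FAP-like cells by the interaction test in edgeR (2 WT and 2 KO libraries, library as a block). It was more positive in myogenic-like cells by 0.792 for Col1a1, 0.492 for Col1a2, 0.466 for Col3a1 and 0.645 for Col14a1 on the log2 scale. For Col1a1 both KO libraries of myogenic-like cells were above both WT libraries, and those of FAP-like cells overlapped. Without the 325 cells led by FAP genes, of which 280 were called doublets, none of the 4 passed, and without called doublets only Col1a1 did. Col1a1 was among the leading genes of those 325 cells, so their removal is no independent test. None passed with the looser cell filter or with collagens kept in the clustering.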

How the results depend on the processing

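None of the named genes' values that passed the adjusted limit changed sign under the alternatives run for them. Of 439 values of the 33 pairs of named gene and comparison under other settings, 361 kept their direction and their side of the limit, 25 lost and 13 gained the limit, and 40 changed sign in a gene called in neither setting, none of these over 0.277 in size on the log2 scale. Members called in edgeR numbered 0 in each class or stage, 2 in mast-like cells and 4 in the interaction, and of 158 counts under other settings 111 stayed within 1.5 times. DESeq2 called 4 members in myogenic-like, 1 in smooth muscle or pericyte-like, 1 in endothelial-like and 4 in mast-like cells and 9 in the interaction. The shares of all genes were 0.0853%, 0.0561%, 0.0484%, 0.12% and 0.253% in this order. RLE factors gave 7 in the interaction, against 0.24% of all genes. With no filter on low counts 3 were called in chondrocyte-like, 6 in smooth muscle or pericyte-like, 1 in glial-like, 0 in mast-like cells and 11 in the interaction. All genes gave 0.249%, 0.622%, 0.312%, 0% and 0.932% there. Without called doublets 1 was called in myogenic-like cells, 0 in mast-like cells and 1 in the interaction, against 0.00679%, 0% and 0.0167% of all genes. Resolution 1 gave 1 in myogenic-like cells, library-centred clustering 3 in smooth muscle or pericyte-like cells, and the looser cell filter 0 in mast-like cells. All genes gave 0.0332%, 0.222% and 0%. Without the 325 cells led by FAP genes, a setting chosen after the data were seen, 0 passed in the interaction, against 0% of all genes. With the cells clustered again, also chosen then, 0 passed with the looser cell filter, 0 with collagens kept in the clustering and 8 at resolution 1. All genes gave 0%, 0.00556% and 0.379%.

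When each library was left out in turn, with the lone library of an arm assumed to vary like the other arm, the counts ran from 0 to 2 in FAP-like, 0 to 3 in myogenic-like, 0 to 5 in tenocyte-like, 0 to 4 in chondrocyte-like, 0 to 6 in smooth muscle or pericyte-like, 0 to 16 in endothelial-like, 0 to 2 in glial-like, 0 to 13 in mast-like and 0 to 1 in progenitor-like cells, and from 4 to 5 in the interaction. Samples with the same replicate number share only a number in the labels. The correlation of their deviations was 0.0239 in endothelial-like cells and 0.201 to 0.325 in the other 6 classes checked, from 2 pairs. With the replicate block 7 members were called in myogenic-like, 6 in smooth muscle or pericyte-like, 1 in endothelial-like, 1 in glial-like and 6 in mast-like cells and 12 in the interaction. The shares of all genes were 0.339%, 0.746%, 0.158%, 0.489%, 0.266% and 1.66% in this order. Of the biosynthesis list the block gave 6 in the interaction, 2 in smooth muscle or pericyte-like, 1 in glial-like and 1 in mast-like cells.

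The class with the highest level was compared over settings among the marker-named classes of the main clustering only. The Ccl11 cluster and clusters formed only under another setting, such as the Spp1-led cells, were left out. Among the ranked classes, the highest was kept for 42 of 42 genes without called doublets and for 40 with the looser cell filter. It was kept for 41 at resolution 1, 42 with collagens kept in the clustering and 40 with library-centred clustering. Only Col5a2 and Col24a1 changed within this ranking, both to tenocyte-like cells. The share of macrophage-like cells with a Col1a1 UMI was 13.6% after thinning to 1000 UMIs and 57.4% without thinning. Myotube-like cells had fewer than 15 cells in 2 libraries and were tested only with collagens kept in the clustering, where 0 of 28 members passed and 2 were under the unadjusted limit, against 0% and 4.01% of all genes.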
